A study of Mus musculus with 2 samples.

Results

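The genes described here encode the proton pump of the lysosome, proteins of its membrane and lumen, and the factors TFEB and TFE3, measured in single microglia sorted from the mouse spinal cord. Members were every gene symbol starting with Atp6v or Atp6ap, together with Lamp1, Lamp2, Cd63, Cd68, Laptm5, Laptm4a, Npc1, Npc2, Mcoln1, Scarb2, Tfeb and Tfe3. This gave 38 of the 32285 genes in the count tables. Of these, 27 had at least 200 UMIs (unique molecular identifiers, each the tag of 1 captured RNA molecule) over both libraries, 7 had fewer, and 4 had 0.

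There were 2 libraries, 1 per genotype. The WT library came from control mice that carried the floxed Eif4ebp1 alleles without Cre (Eif4ebp1 fl/fl), and the 4E-BP1 cKO library came from Eif4ebp1 fl/fl:TMEM119 CreERT2 mice, in which the Tmem119 promoter drives a tamoxifen-activated Cre in microglia. Per the methods of the study, the mice were males of 8 to 10 weeks and 4-OHT (4-hydroxytamoxifen) was injected from P4 to P9. CD45lo CD11b+ CX3CR1+ cells of the spinal cord were sorted, and the sources used here do not give the number of mice behind a library. With 1 library per genotype there is no replicate, so no test between genotypes was possible, and every interval below covers counting error only.

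The lysosome is the acidic compartment in which microglia degrade what they engulf. Its V-ATPase pumps protons with a membrane sector, V0, that holds the proton channel, and a cytosolic sector, V1, that hydrolyzes ATP. The pump also takes part in recruiting mTORC1, the kinase that phosphorylates 4E-BP1, to the lysosomal surface, and mTORC1 holds TFEB and TFE3 in the cytosol. In the nucleus both factors read a short element in the promoters of lysosomal genes.

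That element was looked up in the promoters of the members (250 bases before to 50 bases after each start site, from RefSeq, GRCm38.p6), of which 30 of 38 had an entry, with 36 promoters in all. The letters TCACGTGA, which read the same on both strands, were found in 4 of 36 member promoters (11.1%), against 0.974% of the 32851 promoters of the table. The shorter CACGTG, which lies inside TCACGTGA, was found in 6 of 36 (16.7%), against 7.15% of all promoters, the further holders being Atp6v0b and Lamp1. The 4 stretches below each run from 150 bases before to 10 bases after a start site and are shown because they are all the member promoters that hold TCACGTGA. The letters TCACGTGA are in capitals. They lie at chr8:105566055-105566214 on the minus strand (Atp6v0d1), chr17:26676246-26676405 on the plus strand (Atp6v0e), chr16:44139250-44139409 on the minus strand (Atp6v1a, at a start site inside the span of the gene) and chr8:3500369-3500528 on the plus strand (Mcoln1). A match is a stretch of letters and no evidence of binding.
Atp6v0d1: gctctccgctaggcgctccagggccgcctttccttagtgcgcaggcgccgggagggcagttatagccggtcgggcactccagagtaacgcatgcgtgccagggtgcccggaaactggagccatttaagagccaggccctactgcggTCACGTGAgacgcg
Atp6v0e: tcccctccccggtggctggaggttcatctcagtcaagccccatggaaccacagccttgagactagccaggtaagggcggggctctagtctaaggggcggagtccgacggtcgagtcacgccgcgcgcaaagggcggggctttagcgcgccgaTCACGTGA
Atp6v1a: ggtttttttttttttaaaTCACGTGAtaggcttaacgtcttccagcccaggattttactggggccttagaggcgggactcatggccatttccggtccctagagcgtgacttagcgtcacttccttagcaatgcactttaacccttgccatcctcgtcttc
Mcoln1: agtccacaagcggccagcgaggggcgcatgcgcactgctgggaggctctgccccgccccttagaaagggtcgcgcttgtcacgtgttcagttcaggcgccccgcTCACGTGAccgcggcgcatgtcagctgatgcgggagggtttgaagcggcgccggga

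After removal of barcodes with 300 or fewer detected genes or at least 5% mitochondrial UMIs, 1147 cells and 4803562 UMIs were kept in the WT library and 445 cells and 1734332 UMIs in the 4E-BP1 cKO library, with medians of 3053 and 2776 UMIs per cell. No barcode was shared. At least 3 of 10 microglia markers were detected in 94.7% of WT and 91.7% of 4E-BP1 cKO cells, whereas at least 3 markers of border macrophages were found in 2 and 1 cells, of oligodendrocytes in 5 and 1, of endothelial cells in 4 and 0, and of monocytes, neutrophils, astrocytes or neurons in none. Levels are given as CPM (UMIs per 1000000 UMIs of the kept cells of a library), and the summed level of each of these other lists was at most 122 CPM. Eif4ebp1 had 95 UMIs in the WT and 51 in the 4E-BP1 cKO library (19.8 and 29.4 CPM). Where these UMIs lie relative to the deleted part was not examined, so they do not check the deletion. Tmem119, whose promoter drives the Cre, stood at 433 and 142 CPM.

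Each kind of subunit of both pump sectors was detected through at least 1 gene with at least 200 UMIs, and most through a single gene. CPM of different genes are set side by side without scaling by length, since a 3′ UMI tags 1 molecule once. Whether intronic reads were counted is not stated, so a part of gene span in these levels was not tested. Over all 38 members, 30217 UMIs were counted in WT and 11799 in 4E-BP1 cKO cells, or 6291 and 6803 CPM, split about evenly between the pump (3000 and 3311 CPM) and the membrane and lumen proteins (3121 and 3285 CPM).

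In the V0 sector, the highest levels were those of Atp6v0c, which encodes the repeated proteolipid of the rotor ring (418 CPM in WT, 540 in 4E-BP1 cKO), and of Atp6v0b, another ring subunit (378 and 462 CPM). Atp6v0d1, which links the ring to the central stalk, stood at 224 and 169 CPM, Atp6v0a1 at 176 and 152 CPM, Atp6v0e at 118 and 150 CPM, and Atp6v0a2 at 67.4 and 64.6 CPM. The order of the 6 genes was the same in both libraries, but not all gaps were. Atp6v0e was under Atp6v0a1 in WT with intervals that did not overlap (108 to 128 against 164 to 188 CPM), but level with it in 4E-BP1 cKO (133 to 170 against 134 to 171 CPM).

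In the V1 sector, Atp6v1a, the catalytic A subunit, led with 352 and 387 CPM. It was followed by the stalk subunit Atp6v1e1 (231 and 287 CPM), Atp6v1c1 (173 and 161 CPM), the regulatory subunit Atp6v1h (146 and 121 CPM), the B subunit Atp6v1b2 (122 and 144 CPM) and Atp6v1d of the central stalk (116 and 128 CPM). Lowest were the stalk subunit Atp6v1g1 (80.6 and 109 CPM) and Atp6v1f of the central stalk (78.1 and 94.0 CPM). A and B occur in equal number in the assembled pump, but the RNA of the A subunit stood at 2 to 3 times that of the B subunit in both libraries. Of the accessory subunits, Atp6ap2, also known as the prorenin receptor, had 244 and 247 CPM and Atp6ap1 had 60.8 and 81.3 CPM. TFEB and TFE3 were at the level of the least abundant subunits, with 86.8 and 93.4 CPM for Tfeb and 82.6 and 114 CPM for Tfe3.

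Among the membrane and lumen proteins, Laptm5, a lysosomal transmembrane protein of hematopoietic cells, was the most abundant member (838 CPM in WT and 880 in 4E-BP1 cKO). Lamp2 (523 and 505 CPM) and Lamp1 (495 and 579 CPM), the main glycoproteins of the lysosomal membrane, came next with Npc2 (421 and 492 CPM), which passes cholesterol in the lumen to NPC1. Npc1 itself had 91.8 and 83.0 CPM. Scarb2, the receptor that carries glucocerebrosidase to lysosomes, stood at 255 and 213 CPM. Cd68, the macrophage glycoprotein used to mark microglial lysosomes in imaging, stood at 170 and 192 CPM, next to the tetraspanin Cd63 (156 and 162 CPM) and Laptm4a (154 and 165 CPM). The intervals of these 3 overlapped in 4E-BP1 cKO cells (172 to 214, 144 to 182 and 146 to 185 CPM).

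**Figure D1:**
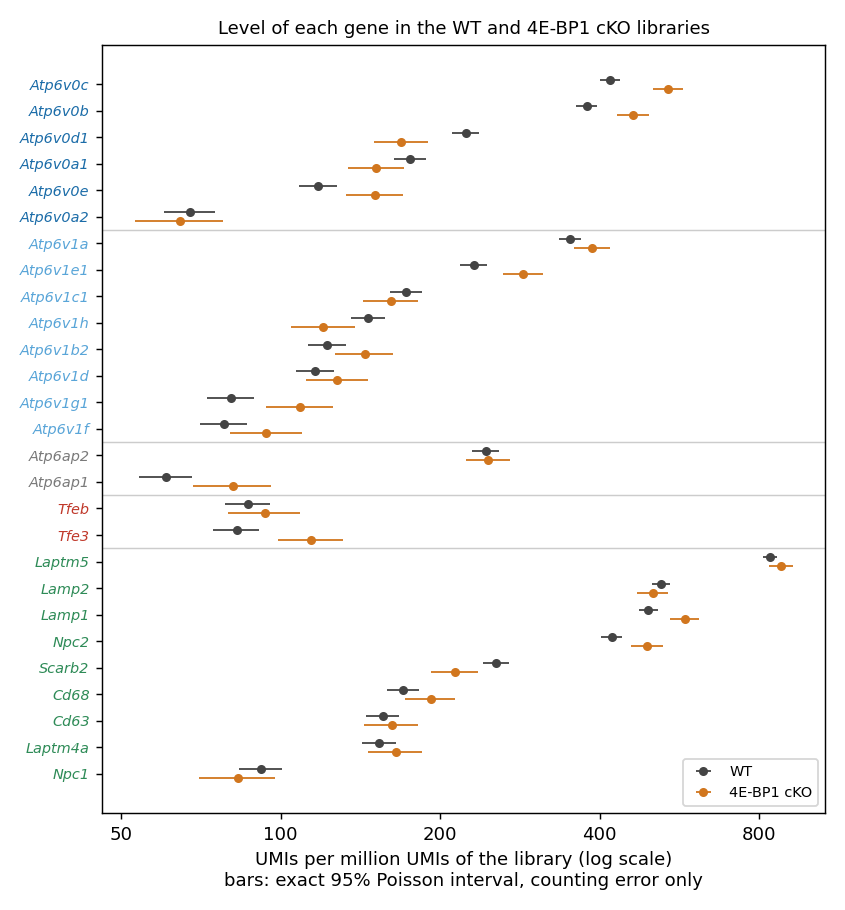
Level of the 27 members with at least 200 UMIs, in CPM (log axis), in the WT (grey) and 4E-BP1 cKO (orange) libraries, with exact 95% Poisson intervals that cover counting error only. Names are colored by role (V0, V1, accessory subunits, factors, membrane and lumen proteins), and levels run from 60.8 CPM for Atp6ap1 to 838 CPM for Laptm5 in WT.

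The remaining 11 members had fewer than 200 UMIs and are given as UMIs in WT and 4E-BP1 cKO cells, without a ratio. Mcoln1, the lysosomal calcium channel TRPML1, had 87 and 24 UMIs, and Atp6v1g2, a second G subunit known from neurons, had 58 and 15. Atp6v0d2, the d subunit of osteoclasts, had 8 and 4, Atp6v0a4 had 1 and 2, Atp6v1c2 had 1 and 1, and Atp6v1b1, the B subunit of kidney, had 1 and 0. Atp6v1fnb, a gene next to Atp6v1f that encodes no pump subunit, had 1 and 1. Atp6v0e2, Atp6v1g3, Atp6v1e2 and Atp6ap1l had 0 UMIs in both. A count of 0 in 1147 WT and 445 4E-BP1 cKO cells allows a share of such cells with a UMI of up to 0.262% and 0.674% (3 counts of the total).

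For most subunits encoded by several genes, 1 gene gave nearly every UMI. Atp6v0d1 gave 99.3% of the d subunit UMIs in WT and 98.7% in 4E-BP1 cKO cells. The a subunit was an exception, since Atp6v0a1 gave 49.4% in WT and 43.8% in 4E-BP1 cKO cells, Tcirg1 (the a3 subunit, no member) 31.5% and 37.3%, and Atp6v0a2 19.0% and 18.6%. The exact binomial intervals of the Atp6v0a1 share overlapped (47.0 to 51.8% and 39.8 to 47.8%). Atp6v1g2 gave 58 of 445 G subunit UMIs in WT and 15 of 204 in 4E-BP1 cKO cells. Lamp1 gave 48.6% (47.2 to 50.1%) of the Lamp1 and Lamp2 UMIs in WT and 53.4% (51.1 to 55.7%) in 4E-BP1 cKO cells, so the pair was level within counting error in WT and Lamp1 was ahead in 4E-BP1 cKO.

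Between the libraries, no member was past 1.5-fold in either direction. Among the 4887 genes with at least 200 UMIs, 1.19% were past 1.5-fold higher and 3.21% past 1.5-fold lower in 4E-BP1 cKO, and among the 27 members 0 and 0 were. At a smaller fold, a log2 ratio past 0.32 in size, 5 members were higher (Atp6v0c, Atp6v0e, Atp6v1g1, Atp6ap1 and Tfe3, 18.5% of 27, against 8.55% of all genes) and 1 was lower (Atp6v0d1, 3.70%, against 14.6% of all genes). The log2 ratio of 4E-BP1 cKO over WT (of CPM + 1) had a median of 0.14 over the 27 members and -0.03 over all genes, and 19 of 27 members were above 0.

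The summed pump was 1.10-fold higher in 4E-BP1 cKO (log2 ratio 0.14, 95% interval 0.10 to 0.19), with V0 at 0.16 (0.09 to 0.22) and V1 at 0.14 (0.07 to 0.20). The summed membrane and lumen proteins were 1.05-fold higher (0.07, 0.03 to 0.12), a value that moved to 0.0097 with clusters weighted equally and to 0.15 with cells weighted equally. TFEB and TFE3 together stood at 169 and 208 CPM (0.29, 0.11 to 0.47). Without a second library per genotype, ratios of this size cannot be set against the spread between mice.

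The pump subunits did not move together. Atp6v1g1 (0.43, 0.18 to 0.69), Atp6v0c (0.37, 0.25 to 0.48), Atp6v0e (0.35, 0.14 to 0.57), Atp6v1e1 (0.31, 0.16 to 0.46) and Atp6v0b (0.29, 0.17 to 0.41) were higher in 4E-BP1 cKO by more than counting error, as was the accessory subunit Atp6ap1 (0.41, 0.12 to 0.71). So were Atp6v1b2 (0.23, 0.02 to 0.45) and Atp6v1a, which is given below. In contrast, Atp6v0d1 (-0.40, -0.60 to -0.22), Atp6v1h (-0.28, -0.51 to -0.05) and Atp6v0a1 (-0.21, -0.42 to -0.01) were lower. The intervals of Atp6v1f (0.26), Atp6v1d (0.14), Atp6ap2 (0.02), Atp6v0a2 (-0.06) and Atp6v1c1 (-0.10) included 0. Of the genes with TCACGTGA in a promoter and a ratio, Atp6v0e and Atp6v1a (0.14, 0.01 to 0.27) were thus higher and Atp6v0d1 was lower. The 5 members with CACGTG and a ratio had a median of 0.23, against 0.12 for the 16 members with a promoter entry and a ratio but without CACGTG. The 5 ran from -0.40 (Atp6v0d1) to 0.35 (Atp6v0e), and the difference in medians was not tested.

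Tfe3 had the highest ratio of all members (0.46, 0.21 to 0.72), whereas Tfeb was near 0 (0.10, -0.17 to 0.37). Among the membrane and lumen proteins, Lamp1 (0.23, 0.12 to 0.33) and Npc2 (0.22, 0.11 to 0.34) were higher and Scarb2 was lower (-0.26, -0.43 to -0.09). The intervals of Laptm5 (0.07), Lamp2 (-0.05), Cd63 (0.05), Laptm4a (0.10) and Npc1 (-0.14) included 0. Cd68 was counted 817 times in WT and 333 times in 4E-BP1 cKO, and its ratio of 0.17 had an interval from -0.01 to 0.36.

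**Figure D2:**
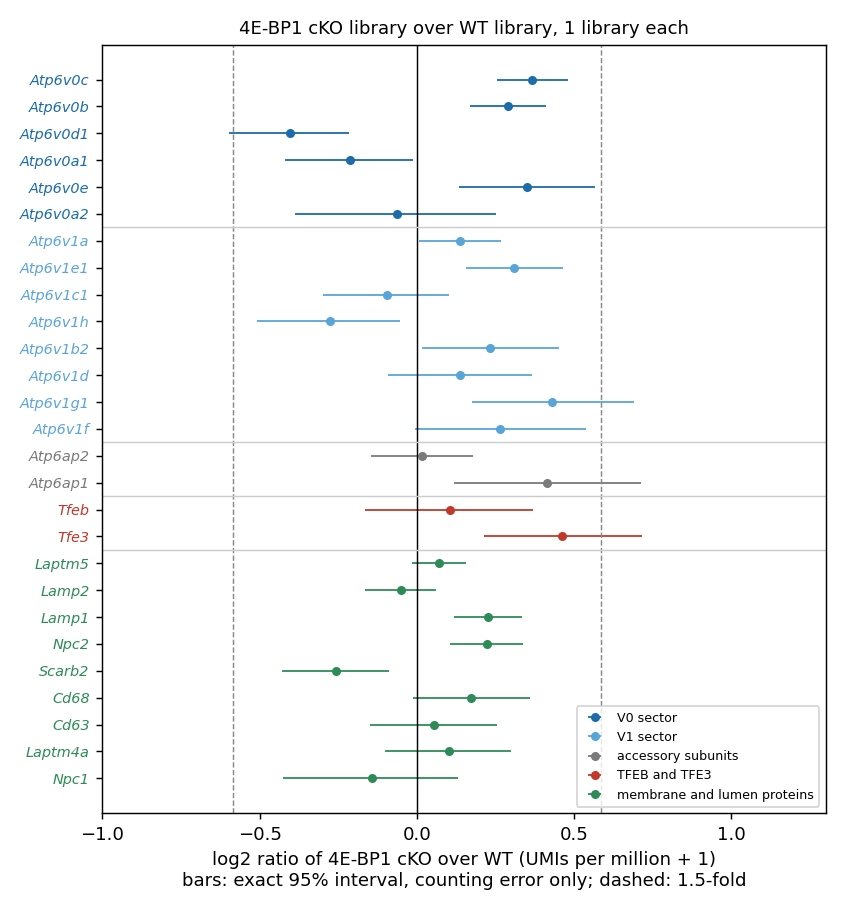
The log2 ratio of 4E-BP1 cKO over WT (CPM + 1, 1 library each) for the 27 members with at least 200 UMIs, with exact 95% intervals (counting error only) and dashed lines at 1.5-fold. Ratios run from -0.40 (Atp6v0d1) to 0.46 (Tfe3), and all points lie inside the dashed lines.

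The libraries also differed in how their cells were spread over clusters of low and higher ribosomal protein share. Clusters were made without the member genes and numbered 1 to 9 by size. In clusters 1, 2, 7 and 8, ribosomal protein genes took a median of 1.17 to 1.34% of the UMIs of a cell, against 4.25 to 18.4% in clusters 3, 4, 5, 6 and 9. The former, with medians under 3%, are called ribosome-poor here. They held 55.4% of WT cells (52.5 to 58.4%) and 44.0% of 4E-BP1 cKO cells (39.4 to 48.8%). With 1 library per genotype, this difference cannot be set against the spread between mice. From its own clusters of these cells, the paper reported that the proportions of microglial subpopulations did not change substantially. The share of single cells is not sharply split, since 17.4% of WT and 15.1% of 4E-BP1 cKO cells had a ribosomal protein share of 2 to 4%. Within these classes, the pump ratio of 4E-BP1 cKO over WT was 0.10 (0.02 to 0.18) in ribosome-poor and 0.15 (0.10 to 0.21) in other clusters, and the membrane ratio was 0.04 (-0.05 to 0.14) and 0.03 (-0.02 to 0.08), so the latter no longer differed from 0 by more than counting error. The median over the 27 members was 0.09 in ribosome-poor clusters (-0.01 over all genes) and 0.08 in the others (-0.04 over all genes).

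Lamp1, Atp6v0b and Atp6v0d1 had a similar ratio in both classes of clusters. Lamp1 had 0.18 (-0.05 to 0.40) in ribosome-poor and 0.20 (0.08 to 0.32) in other clusters. In the same order, Atp6v0b had 0.35 and 0.26, and Atp6v0d1 had -0.41 and -0.33. For the genes that follow, the ratios lay further apart between the classes, with intervals that overlapped, and these differences were not tested. Tfe3 had 0.66 (0.23 to 1.10) and 0.37 (0.06 to 0.69). Atp6v0c had 0.11 (-0.19 to 0.41) in ribosome-poor and 0.33 (0.21 to 0.45) in other clusters. Atp6v0a1 had -0.06 (-0.38 to 0.25) and -0.24 (-0.51 to 0.03), and both intervals included 0. Atp6v1h had -0.39 (-0.78 to -0.02) and -0.14 (-0.43 to 0.15). For Cd68, the ratios were 0.29 (-0.20 to 0.77) and 0.07 (-0.14 to 0.27).

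Atp6v1b2 and Atp6ap1 departed furthest between the classes. Atp6v1b2 had a ratio of 0.76 (0.44 to 1.09) in ribosome-poor and -0.09 (-0.39 to 0.20) in other clusters. In cluster 2 it stood at 181 CPM in WT and 397 CPM in 4E-BP1 cKO. There, 94 UMIs came from 26 of 71 4E-BP1 cKO cells, and a single cell held 28 of them (29.8%). Without that cell, the ratio in ribosome-poor clusters was 0.41 (0.06 to 0.77). Atp6ap1, with 65 and 38 UMIs in ribosome-poor clusters of WT and 4E-BP1 cKO, had a ratio of 0.98 (0.38 to 1.60) there and of 0.19 (-0.16 to 0.53) in other clusters. These differences between classes were not tested.

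The membrane proteins and the pump differed in how they varied over the clusters. Over both libraries together, the summed membrane and lumen proteins ranged from 2143 to 2585 CPM in the ribosome-poor clusters. In the others they ranged from 3234 to 4158 CPM, without overlap. The summed pump ranged from 2485 to 3389 CPM in the ribosome-poor clusters and from 2640 to 3479 CPM in the others, and these ranges overlapped. In WT the pump ran from 2424 CPM in cluster 1 to 3480 CPM in cluster 6, and in 4E-BP1 cKO from 2692 CPM in cluster 5 to 3655 CPM in cluster 3.

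**Figure D3:**
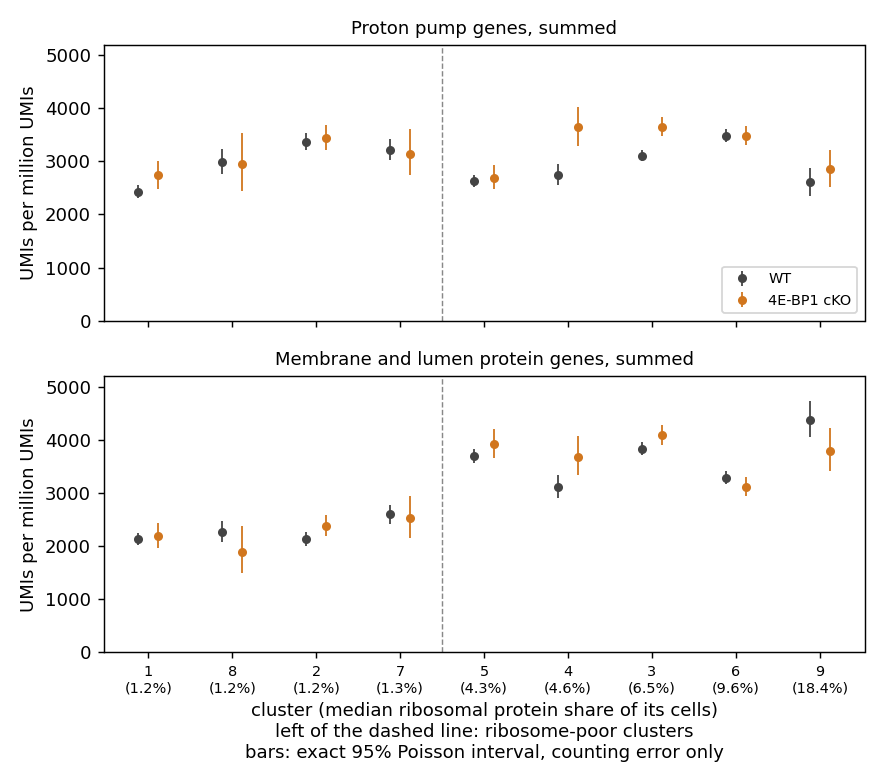
Summed CPM of the pump genes (top) and of the membrane and lumen protein genes (bottom) in each of 9 clusters, ordered by the median ribosomal protein share of their cells, in WT (grey) and 4E-BP1 cKO (orange), with exact 95% Poisson intervals (counting error only). Membrane CPM is at most 2597 (WT, cluster 7) left of the dashed line and at least 3109 (WT, cluster 4) right of it. Pump CPM overlaps across the line.

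As log2 ratios of ribosome-poor over other clusters, the summed membrane and lumen proteins stood at -0.69 (-0.74 to -0.63) in WT and -0.67 (-0.77 to -0.58) in 4E-BP1 cKO. Not all of them were lower, since Scarb2 was higher, at 0.27 (0.11 to 0.44) and 0.41 (0.09 to 0.73). The pump stood at -0.05 (-0.10 to -0.0024) and -0.10 (-0.19 to -0.02). Within the pump, summed V0 was lower (-0.23 and -0.33) and summed V1 higher (0.14 and 0.13) in ribosome-poor clusters. The ratios of V1 nevertheless lay under the median over all genes (0.18 and 0.19). Totals without ribosomal protein and mt- genes were not tried for V0 or V1 alone. Neither the V0 nor the V1 sum held for all genes of its sector. The V0 genes with at least 200 UMIs had medians of -0.08 and -0.09. Of these, Atp6v0c stood at -1.20 and -1.42 but Atp6v0a1 at 0.61 and 0.79. In WT, Atp6v0c had 227 CPM in ribosome-poor and 523 CPM in other clusters, against 1246 and 1458 CPM for summed V0. In 4E-BP1 cKO it had 245 and 658 CPM, against 1304 and 1637 CPM. The gap of Atp6v0c was thus larger than that of the V0 sum, so the other V0 genes together were not lower. The V1 genes with at least 200 UMIs had medians of 0.30 and 0.18, with Atp6v1g1 at -1.75 and -1.74. TFEB and TFE3 together were higher (0.39 and 0.51). For Tfe3 alone, the ratios of 0.06 (-0.25 to 0.36) and 0.35 (-0.10 to 0.78) had intervals that included 0. Tfeb is described below. The median over all genes in this comparison was 0.18 in WT and 0.19 in 4E-BP1 cKO, above the medians of the members (-0.05 and -0.11). Leaving out clusters 6 and 9, those with the highest ribosomal share, turned the pump ratio in WT to 0.028. In 4E-BP1 cKO it stayed at -0.11.

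Past 1.5-fold, 10 of 27 members were lower in ribosome-poor clusters in WT and 9 in 4E-BP1 cKO (19.7% and 21.8% of all genes), and 3 were higher in each (17.3% and 27.2% of all genes). In both libraries alike, 9 members were lower (33.3%, against 16.5% of all genes) and 2 were higher (7.41%, against 12.3% of all genes). The 9 were Atp6v0c, Atp6v0e, Atp6v1g1, Atp6v1f, Laptm5, Npc2, Cd68, Cd63 and Laptm4a. The 2 were Atp6v0a1 and Tfeb, of which Tfeb alone was past 1.5-fold in both libraries when single cells were split at a ribosomal protein share of 3%.

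Cd63 was lowest relative to the other clusters. It stood at 59.5 CPM in ribosome-poor and 209 CPM in other clusters in WT (-1.79, -2.13 to -1.51), and at 56.3 and 204 CPM in 4E-BP1 cKO (-1.84, -2.48 to -1.29). Atp6v1g1 had 31.2 and 108 CPM in WT (-1.75) and 40.2 and 137 CPM in 4E-BP1 cKO (-1.74). Laptm5 had 410 and 1072 CPM in WT (-1.39) and 449 and 1054 CPM in 4E-BP1 cKO (-1.23). In each of these genes the libraries gave the same direction and a similar size.

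Cd68 had 81.8 CPM in ribosome-poor and 218 CPM in other clusters in WT (-1.40, -1.69 to -1.15), and 101 and 229 CPM in 4E-BP1 cKO (-1.18, -1.65 to -0.75). The gap between the classes of cluster was thus larger than that between the libraries (170 and 192 CPM). Over both libraries, its level ran from 53.8 CPM in cluster 8 to 248 CPM in cluster 9.

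Tfeb went the other way, with 115 CPM in ribosome-poor and 71.2 CPM in other clusters in WT (0.69, 0.41 to 0.98), and 129 and 79.2 CPM in 4E-BP1 cKO (0.69, 0.22 to 1.17). Atp6v0a1 had 227 and 148 CPM in WT (0.61) and 217 and 125 CPM in 4E-BP1 cKO (0.79). Atp6v0d1 was also higher, just under and short of 1.5-fold (0.58 and 0.49). Subunits of the same sector thus moved apart, with Atp6v0c at -1.20 and -1.42 and Atp6v0d1 at 0.58 and 0.49 in the same cells. The pair of glycoproteins also differed, with Lamp1 at -0.52 and -0.54 and Lamp2 at -0.05 and 0.11. The share of Atp6v1g2 among the G subunits was 27.4% (17.6 to 39.1%) in ribosome-poor and 10.2% (7.33 to 13.8%) in other clusters of WT. In 4E-BP1 cKO it was 23.1% (8.97 to 43.6%) and 5.06% (2.34 to 9.38%). These shares rest on few UMIs of Atp6v1g2, 20 and 38 in WT and 6 and 9 in 4E-BP1 cKO. In WT the level of Atp6v1g2 was similar in ribosome-poor and other clusters (11.8 and 12.2 CPM), while Atp6v1g1 stood at 31.2 and 108 CPM.

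**Figure D4:**
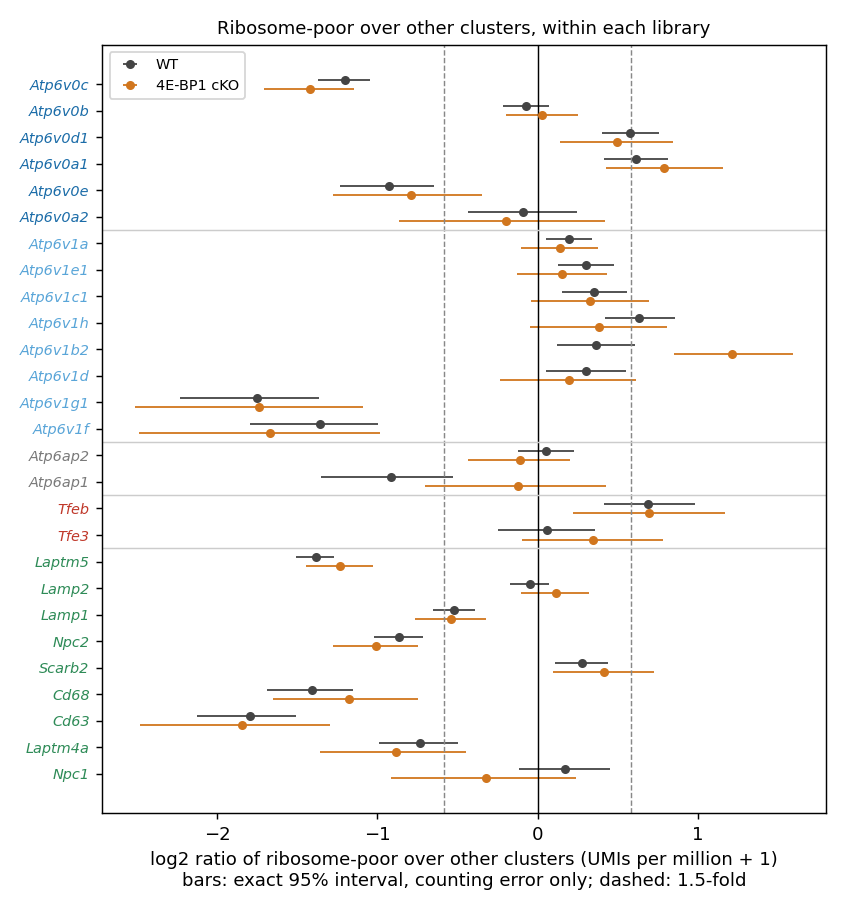
The log2 ratio of ribosome-poor over other clusters (CPM + 1) for the 27 members in WT (grey) and 4E-BP1 cKO (orange), with exact 95% intervals (counting error only) and dashed lines at 1.5-fold. The libraries lie close to each other for most members, from -1.79 and -1.84 for Cd63 to 0.69 and 0.69 for Tfeb, and lie apart for Atp6v1b2 (0.36 and 1.22) and Atp6ap1 (-0.92 and -0.12).

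Several measures differed between the classes of clusters when the cells of each class were pooled. Cells of the ribosome-poor clusters had medians of 2339 UMIs in WT and 1957 in 4E-BP1 cKO, against 5593 and 4683 in other clusters. The nuclear RNA Malat1 took 4.84% and 4.82% of their UMIs, against 2.76% and 3.21%. The summed 10 microglia markers stood at 6554 and 5985 CPM, against 12603 and 11784 CPM, and 11 early genes that respond to cell isolation, among them Fos and Jun, at 12493 and 13780 CPM, against 18995 and 21944 CPM. Over single clusters, Malat1 and the microglia markers did not overlap between the classes, but depth and the early genes did. Cluster 4, not ribosome-poor, was the shallowest of all (median 763 UMIs). The early genes stood at 20930 CPM in ribosome-poor cluster 8 but at 10575 CPM in cluster 5 of the others. The part of these measures in the results above was not tested.

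Most members that were low in ribosome-poor clusters were short genes. Across the 27 members, the log2 ratio of ribosome-poor over other clusters and the span of the gene from start to end had a Spearman rho of 0.68 in WT and 0.61 in 4E-BP1 cKO. Across 4760 genes with at least 200 UMIs and a span in the RefSeq table, rho was 0.62 and 0.62. All of these genes were counted in the same cells and libraries. Of the 9 members that were lower in both libraries, Cd68 spans 1958 bases, Atp6v1f 2727, Atp6v0c 5814 and Atp6v1g1 5937, whereas Tfeb spans 55380 bases and Atp6v0a1 54298. With all genes split by span into terciles of equal size, 7 of those 9 members fell in the shortest tercile (up to 21857 bases). The 12 members of this tercile had a median log2 ratio of -0.89 in WT and -0.94 in 4E-BP1 cKO, against -0.52 and -0.59 over all of its genes. The 12 members of the middle tercile had medians of 0.25 and 0.15, against 0.18 and 0.21. Atp6v0b, which spans 3004 bases, did not follow, with -0.07 and 0.03. Nor did Tfe3 (12673 bases, 0.06 and 0.35) or Atp6v1d (19027 bases, 0.30 and 0.20), both also in the shortest tercile. Laptm5 and Atp6v0e, of 23259 and 23252 bases, lay well below the median of the middle tercile, with -1.39 and -1.23 for Laptm5.

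**Figure D5:**
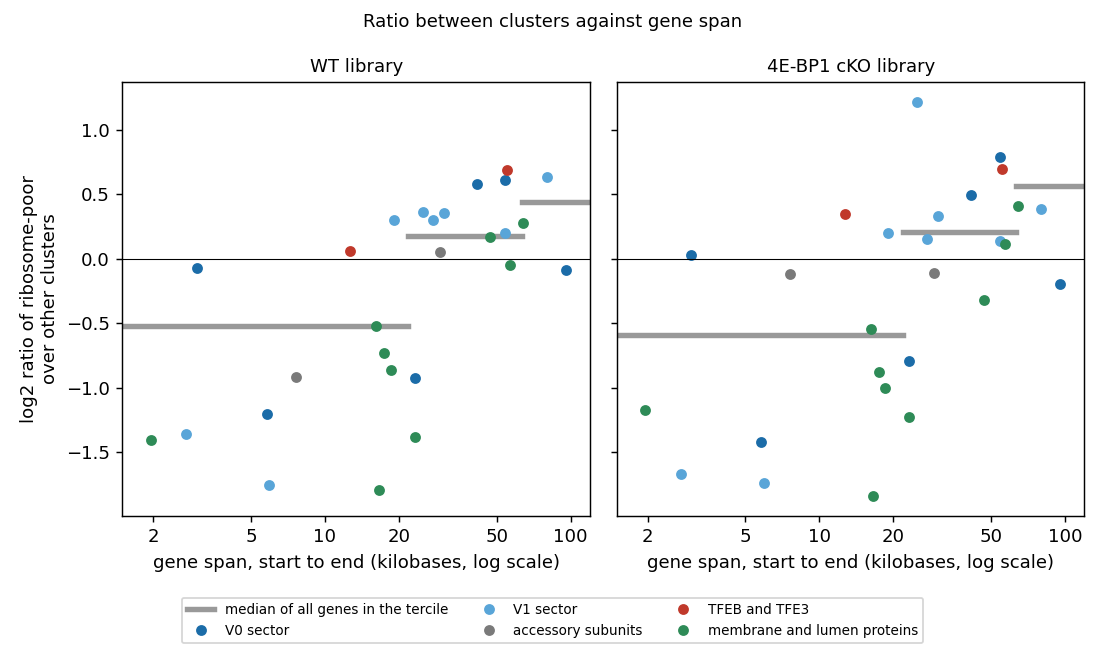
The log2 ratio of ribosome-poor over other clusters against gene span (kilobases, log axis) for the 27 members, colored by role, in WT (left) and 4E-BP1 cKO (right), with grey lines at the median of all genes in each tercile of span. Members in the shortest tercile have medians of -0.89 and -0.94. Of these, Atp6v0b lies near 0 in both panels, and Tfe3 and Atp6v1d lie above 0 in both.

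Single clusters showed how far members could diverge. Cluster 9 was the smallest (43 cells, median ribosomal protein share 18.4%) and was led by Gm1673, Apoe and Eef1akmt4. Extremes were not counted over all genes, but among the 27 members, over both libraries together, cluster 9 had the highest level of 8 and the lowest of 13. It was highest for Cd63 (302 CPM, against 38.4 CPM in cluster 8), Atp6v1f (219 against 31.2 CPM in cluster 1), Atp6v1g1 (215 against 29.5 CPM in cluster 2) and Npc2 (906 against 251 CPM in cluster 2). It was lowest for Atp6v1h (62.1 CPM, against 251 CPM in cluster 2), Atp6v1a (211 against 562 CPM in cluster 2) and Tfeb (49.7 against 140 CPM in cluster 1). Single libraries did not all give the same lowest cluster. In WT alone, Atp6v1h was lowest in cluster 4 (85.9 CPM, against 86.9 CPM in cluster 9). In 4E-BP1 cKO alone, Atp6v1a was lowest in cluster 8 (177 CPM, on 7 UMIs, against 261 CPM in cluster 9). Over both libraries together, Atp6v0b was the most even member, from 294 CPM in cluster 9 to 487 CPM in cluster 3. This did not hold in 4E-BP1 cKO alone. There it ran from 282 CPM in cluster 9 to 707 CPM in cluster 8, a ratio of 2.50, against 2.09 for Lamp1. For 12 of 27 members, the same cluster was highest in both libraries. Without the same counts over all genes, these counts do not set the members apart. In cluster 9, Atp6v1h rested on 15 UMIs and Tfeb on 12.

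In single cells the members were sparse. Cd68 had a UMI in 35.6% of WT (32.8 to 38.4%) and 40.4% of 4E-BP1 cKO cells (35.9 to 45.2%), and Lamp1 in 66.4% and 66.1%. After each cell was thinned to 872 UMIs, which kept 1058 WT and 375 4E-BP1 cKO cells, the shares were 11.7% (9.84 to 13.8%) and 16.5% (12.9 to 20.7%) for Cd68 and 30.6% and 38.7% for Lamp1. At that depth Cd68 was found in 6.62% of ribosome-poor and 18.9% of other cells in WT, and in 9.20% and 22.2% in 4E-BP1 cKO. Tfeb was found in 8.72% and 4.78% in WT and in 12.3% and 6.60% in 4E-BP1 cKO. No cell type that lacks these genes was present in number, so the share that free RNA gives could not be set beside these values.

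The thinned cells held a mean of 2.59 pump UMIs in WT and 2.86 in 4E-BP1 cKO, with variances over cells of 3.15 and 3.85. They held a mean of 2.42 and 2.81 membrane UMIs, with variances of 3.63 and 4.21. A share of 9.92% of WT and 7.47% of 4E-BP1 cKO cells had no pump UMI. Membrane UMIs averaged 1.88 per cell in ribosome-poor and 3.18 in other cells of WT (2.01 and 3.42 in 4E-BP1 cKO), while pump UMIs averaged 2.60 and 2.59 (2.69 and 2.99 in 4E-BP1 cKO).

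Other genes of the pathway were taken from a list of 56 genes (assembly factors and regulators of the pump, the Ragulator complex and Rag GTPases that hold mTORC1 at the lysosome, lysosomal channels and transporters, relatives of TFEB and sorting receptors), of which 39 had at least 200 UMIs. Between the libraries, 2 of 39 were past 1.5-fold higher in 4E-BP1 cKO, namely Gpr137b (37.5 and 61.1 CPM, 0.69) and Gnptab (29.6 and 46.1 CPM, 0.62), which encodes a subunit of the enzyme that starts the mannose 6-phosphate tag. Cln3 was the 1 gene past 1.5-fold lower (74.5 and 47.3 CPM, -0.65). These were 5.13% and 2.56% of the list, against 1.19% and 3.21% of all genes, and the median log2 ratio of the 39 was 0.07, against -0.03 over all genes. Between ribosome-poor and other clusters, 9 of 39 were past 1.5-fold higher in both libraries (Fnip2, Mitf, Clcn3, Rptor, Slc38a9, Oxr1, Clcn7, Dmxl1 and Tcirg1) and 6 were lower (Lamtor2, Lamtor4, Tmem106b, Cd164, Rnasek and Vma21). These were 23.1% and 15.4% of the list, against 12.3% and 16.5% of all genes. A further 4 genes were past 1.5-fold in WT but not in 4E-BP1 cKO (Rragc, Tpcn1 and Dmxl2 higher, Ostm1 lower), and 5 in 4E-BP1 cKO but not in WT (Tsc1, Tmem175, Cln3, Fnip1 and Ctns, all higher), and these differences between the libraries were not tested. Mitf, a relative of Tfeb, was higher like Tfeb (0.72 in WT and 0.89 in 4E-BP1 cKO), and Tcirg1 was higher like Atp6v0a1 (0.84 and 0.63). Lamtor2 and Lamtor4, small subunits of Ragulator, were lower, on few UMIs in ribosome-poor clusters. Lamtor2 stood at -2.47 (-3.56 to -1.80, 13 UMIs there) in WT and -3.03 (-5.54 to -1.62, 3 UMIs) in 4E-BP1 cKO. Lamtor4 stood at -2.25 (-2.89 to -1.77, 31 UMIs) and -1.83 (-2.78 to -1.07, 14 UMIs). Lamtor1 (-0.25 and -0.25) and Lamtor3 (0.04 and -0.02) were not past 1.5-fold and had intervals that included 0. Rptor, the mTORC1 subunit that docks on the Rag GTPases, was higher (0.73 and 1.01). Most genes of the list past 1.5-fold in both libraries differ in span in the same way as the members. Lamtor2 spans 3133 bases, Lamtor4 3914 and Rptor 296687. Tcirg1 was an exception, since it was higher but spans 11084 bases. That is less than the lower genes Cd164 (11543), Vma21 (11955) and Tmem106b (19511).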

How the data were processed

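Single cells were sequenced with 10x 3′ v3.1 chemistry. The count tables deposited by the authors hold unnormalized UMI counts, written by Cell Ranger (8.0.1 in the file header) on mm10. Recent versions of Cell Ranger count intronic reads by default. The sources used here do not give the setting, which bears on values that vary with gene span. Groups came from the sample labels. The members and gene lists were chosen with earlier results of these data known.

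Kept barcodes had over 300 genes with a UMI and less than 5% of UMIs from mt- genes (1147 of 1216 in WT, 445 of 474 in 4E-BP1 cKO). Doublets were not removed. Scrublet (in scanpy 1.11.5) called 4 of an expected 10.5 in WT and 11 of an expected 1.58 in 4E-BP1 cKO, and their removal was an alternative. Counts were summed over cells and scaled to CPM, and ratios were log2 of CPM + 1. The exact conditional Poisson intervals of the ratios were computed without the added 1. Ratios and intervals were tried on simulated Poisson sums, which hold no further spread between cells and so cannot check for it. Shares have exact (Clopper-Pearson) intervals. Clusters were made with Seurat 5.3.0 (SCTransform, RPCA, 20 components, resolution 1.4) without the member genes. A gene past 1.5-fold with at least 200 UMIs was counted, which is no test. All members are accounted for, and genes of the pathway list are named where past 1.5-fold. TMM factors came from edgeR 4.0.16. Spans and promoters came from RefSeq (GRCm38.p6). No sequence of Npc1 is printed. Alternatives changed doublets, cell filters, library totals, the pseudocount, the weight of cells and clusters, the clustering and thinning.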

Additional observations from a re-analysis of the deposited data

Results flagged for a closer look

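In 4 of the 27 members, the log2 ratio of ribosome-poor over other clusters had opposite signs in the libraries, and the difference between the libraries was not tested. Atp6v0b stood at -0.07 in WT and 0.03 in 4E-BP1 cKO. Atp6ap2, the prorenin receptor, stood at 0.05 in WT and -0.11 in 4E-BP1 cKO. Lamp2 stood at -0.05 in WT and 0.11 in 4E-BP1 cKO. Npc1, the cholesterol transporter of the lysosomal membrane, stood at 0.17 in WT and -0.32 in 4E-BP1 cKO. The counting interval of each of these ratios included 0, in either library. Opposite signs were not counted over all genes, so this count does not set the members apart.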

How the results depend on the processing

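No replicate could be left out and no paired analysis was possible because each genotype had 1 library. Over the alternatives, 92 of 114 values stayed within the interval, or within 1.5 times the count, of the reported value. Over all cells, no member was past 1.5-fold between the libraries after changes to doublets, cell filters, totals, TMM factors or the UMI minimum, and 1 was with clusters weighted equally (Tfe3, higher), and at a log2 ratio of 0.32 in size there were 5 higher and 1 lower. The membrane ratio between the libraries was 0.0097 with clusters weighted equally, 0.15 with cells weighted equally and 0.029 within the other clusters, the latter chosen after seeing the data. Between ribosome-poor and other clusters, leaving ribosomal protein and mt- genes out of the totals gave -0.14 (WT) and -0.20 (4E-BP1 cKO) for the pump and -0.77 and -0.77 for the membrane. Splitting single cells at 3% gave -0.63 for the membrane in WT, with Tfeb the 1 member higher in both libraries. Without clusters 6 and 9, chosen after seeing the data, the pump stood at 0.028 in WT and -0.11 in 4E-BP1 cKO. The membrane stood at -0.72 and -0.79 under the same change. Thinning gave cells with a UMI of 11.7% and 16.5% for Cd68, 30.6% and 38.7% for Lamp1, 24.7% and 32.3% for Atp6v0c, and 7.09% and 9.07% for Tfeb, in WT and 4E-BP1 cKO, where the shallower depth itself lowers the share. The depth leaves 11 of 38 members without a ratio.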
